A study of Mus musculus with 14 samples.

Results

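Fatty acid synthesis and desaturation was followed through 10 genes, Acly, Acss2, Me1, Acaca, Fasn, Elovl6, Scd1, Scd2, Fads1 and Fads2, which were found by their symbols among the 23284 symbols counted in mouse forelimb buds. All 10 passed the filter on low counts. The question was whether these lipogenic targets of the SREBP transcription factors followed the genes of cholesterol synthesis in limb buds that lack Smad4. SMAD4 is the shared partner of the SMAD proteins that carry BMP and TGFβ signals to the nucleus. RNA-seq compared wild-type limb buds (Smad4+/+, n=3) with Smad4Δ/Δc limb buds (n=4) at E10.0 (30 somites), and the same genotypes (n=3 and n=4) at E10.5 (35 somites), in NMRI mice, with both forelimb buds of 1 embryo pooled in each sample. Every embryo carried the transgene PrxCreT/+. The mutants joined a constitutive null allele to a floxed allele that Prrx1-CRE deletes in limb bud mesenchyme. Cells outside the mesenchyme, such as ectoderm and blood cells, would keep the floxed allele, but deletion was not measured by cell type. The null allele is present in every mutant cell. The measure is the bulk level of a transcript, so that fewer cells of a type and less RNA per cell cannot be told apart.

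Cells make fatty acids from acetyl-CoA. ATP citrate lyase (Acly) and acetyl-CoA synthetase (Acss2) supply the acetyl-CoA, malic enzyme (Me1) supplies NADPH, acetyl-CoA carboxylase (Acaca) makes malonyl-CoA, and fatty acid synthase (Fasn) builds palmitate, which Elovl6 extends to stearate. The stearoyl-CoA desaturases Scd1 and Scd2 place the first double bond, and Fads1 and Fads2 add further double bonds to polyunsaturated chains. Genes of this pathway are textbook targets of SREBP-1c, encoded by Srebf1, and genes of cholesterol synthesis are those of SREBP-2, encoded by Srebf2. INSIG1 holds both SREBPs in the endoplasmic reticulum when sterols are plentiful.

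The depth of the libraries was 34066930 to 61691258 reads on genes, with 249 to 102570 reads per member and embryo. Smad4, the targeted gene, stood at 152 to 169 CPM (TMM-normalized read counts scaled to a common library size) in the 6 wild-type embryos and at 32.9 to 46.0 CPM in the 8 mutants. Prrx1, a limb bud mesenchyme marker, was found at 537 to 915 CPM. Plin1, a defining adipocyte gene, had 0 reads in every embryo, and Adipoq had at most 3. The 45S ribosomal precursor Rn45s took 1.72% to 8.05% of the reads in the 4 mutants numbered 4 and 5, and 0.151% to 0.478% in the other 10 embryos. Since these 4 libraries are all mutants, calls of members that change without them are given both ways. Between genotypes this also holds for the other lipid and sterol genes named as lower or higher. Summed markers of mesothelium were 8.58 to 18.9 CPM in mutants and 1.63 to 3.17 CPM in wild type at E10.0, but 1.498 to 4.04 CPM and 4.13 to 6.76 CPM at E10.5, with Msln, a defining gene, at 0 to 8 reads. Macrophage markers summed to 7.93 to 10.6 CPM in mutants and 2.66 to 6.80 CPM in wild type at E10.0, and to 17.1 to 26.6 CPM and 13.8 to 16.9 CPM at E10.5. The summed limb mesenchyme markers overlapped between genotypes at both stages. By the test described next, however, 4 of 5 were lower in mutants at E10.0, and 3 were lower and 1 was higher at E10.5. Of all genes tested, 3.28% and 1.54% were lower at these stages. The paper counts Prrx2, which is among the 5, as a SMAD4 target gene. The summed ectoderm markers also overlapped at both stages. All 7 had log2 fold changes below 0 at E10.0 (−0.40 to −0.09, median −0.18), and 1 passed as lower. At E10.5 they ran from −0.23 to 0.18, and 0 passed. The part of these cells in the results was not tested.

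At E10.0 the 4 desaturases among the 10 members were lower in mutant limb buds, and none of the 6 genes for supply, synthesis and elongation passed the test. Scd1 and Scd2 changed most. A gene counted as differentially expressed (DEG) at an adjusted p of at most 0.1 by edgeR's exact test over 12393 genes and a fold change of at least 1.2. By this rule 4 of 10 members were DEGs, all lower, where 6.61% of all genes tested were DEGs and 3.28% were lower. In 6 of 10 members every mutant lay below every wild-type embryo, which held for 9.78% of all genes. The median log2 fold change was −0.37 over the 4 desaturases, −0.06 over the 6 other members and −0.02 over all genes tested. These 4 desaturases are the same genes as the 4 DEGs, so that their median is no separate evidence. The calls also moved with the embryos: Fads1 and Fads2 each lost theirs in some fits given below, and Acly gained one. Outside the members, the desaturase genes Fads3 (−0.26, adjusted p = 0.496) and Degs1 (0.12, adjusted p = 0.545) did not pass.

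Scd1 (ENSMUSG00000037071.2), which encodes a Δ9 desaturase, lies on chromosome 19 at 44468941-44482199 of mm9, on the minus strand. It stood at 194, 211 and 207 CPM in wild-type embryos 1, 2 and 3 at E10.0, and at 122, 117, 124 and 141 CPM in mutants 1, 3, 4 and 5. All 4 mutants were below all wild-type embryos. The log2 fold change was −0.70 ± 0.07 (SE; adjusted p = 5.29e-13), and Scd1 remained a DEG with any 1 of the 14 embryos left out. At E10.5 the levels were 128, 130 and 135 CPM in wild type against 95.4, 110, 97.5 and 99.7 CPM in mutants 1, 2, 4 and 5. The groups again did not overlap, and the log2 fold change was −0.38 ± 0.05 (adjusted p = 0.000896).

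Scd2 (ENSMUSG00000025203.5), a second Δ9 desaturase, is its neighbour on the same chromosome at 44368166-44381354, on the plus strand. At E10.0 it measured 1874, 1881 and 1845 CPM in wild type against 1402, 1333, 1361 and 1473 CPM in mutants. Its log2 fold change was −0.42 ± 0.03 (adjusted p = 1.00e-05). At E10.5 the values were 1605, 1646 and 1649 CPM against 1318, 1424, 1304 and 1258 CPM, and the log2 fold change was −0.30 ± 0.04 (adjusted p = 0.00585). Mutant and wild-type embryos did not overlap at either stage, and Scd2 stayed a DEG at both without any 1 of the 14 embryos. Without mutants 4 and 5 the change at E10.5 was −0.24, below the fold change of 1.2 (adjusted p = 0.0507).

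Because both Scd genes moved together, the longest stretch of coding sequence that they share is shown. Their coding sequences are 90.7% identical over 1067 aligned bases, and the longest run without a difference is 147 bases. The next lines give that run with 30 bases on either side, from exon 4 into exon 5 of both genes, at coding positions 493-699 of Scd1 (chr19:44474801-44476325, mm9, minus strand) and 502-708 of Scd2 (chr19:44374162-44375765, mm9, plus strand). Capitals mark the 2 bases at which they differ.
Scd1: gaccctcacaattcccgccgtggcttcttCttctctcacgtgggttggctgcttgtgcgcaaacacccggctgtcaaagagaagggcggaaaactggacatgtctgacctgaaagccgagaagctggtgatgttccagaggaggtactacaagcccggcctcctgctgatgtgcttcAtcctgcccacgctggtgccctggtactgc
Scd2: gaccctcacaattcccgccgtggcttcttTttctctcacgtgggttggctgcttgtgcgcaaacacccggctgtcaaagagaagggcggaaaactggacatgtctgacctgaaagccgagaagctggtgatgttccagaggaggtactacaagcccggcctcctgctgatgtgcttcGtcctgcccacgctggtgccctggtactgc
Of all 50-base windows of the longest coding transcript, 4.66% in Scd1 and 3.79% in Scd2 also occurred in another gene, of the Scd family (Scd1 to Scd4). Reads in these windows map to several places and were not counted, so that both genes were measured mainly over windows of their own.

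Fads1 (ENSMUSG00000010663.4; chromosome 19, 10257378-10271360, mm9, plus strand), the Δ5 desaturase, stood at 242, 222 and 255 CPM in wild type at E10.0. The mutants measured 193, 201, 196 and 197 CPM. No mutant reached the lowest wild-type embryo, and the log2 fold change was −0.28 ± 0.06 (adjusted p = 0.0141). Without wild-type embryo 3 it was −0.23, with an adjusted p of 0.279. At E10.5 Fads1 was 216, 237 and 227 CPM in wild type against 208, 208, 198 and 192 CPM in mutants. These groups did not overlap either, but the log2 fold change of −0.17 ± 0.05 did not pass (adjusted p = 0.391).

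Fads2 (ENSMUSG00000024665.7; chromosome 19, 10138654-10175993, mm9, minus strand), the Δ6 desaturase, stood at 143, 137 and 154 CPM in wild type at E10.0. The mutants had 104, 105, 129 and 126 CPM. They lay below all wild-type embryos, and the 2 mutants with high Rn45s were the nearer ones. The log2 fold change was −0.32 ± 0.10 (adjusted p = 0.0413), and −0.46 without mutants 4 and 5 (adjusted p = 3.63e-05). The call was lost without wild-type embryo 1 (−0.33, adjusted p = 0.109) or 3 (−0.26, 0.383), and without mutant 1 (−0.26, 0.153) or 3 (−0.27, 0.129). At E10.5 the groups overlapped, at 123, 123 and 119 CPM in wild type against 98.3, 115, 125 and 125 CPM in mutants, and the log2 fold change was −0.07 ± 0.08.

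**Figure D1:**
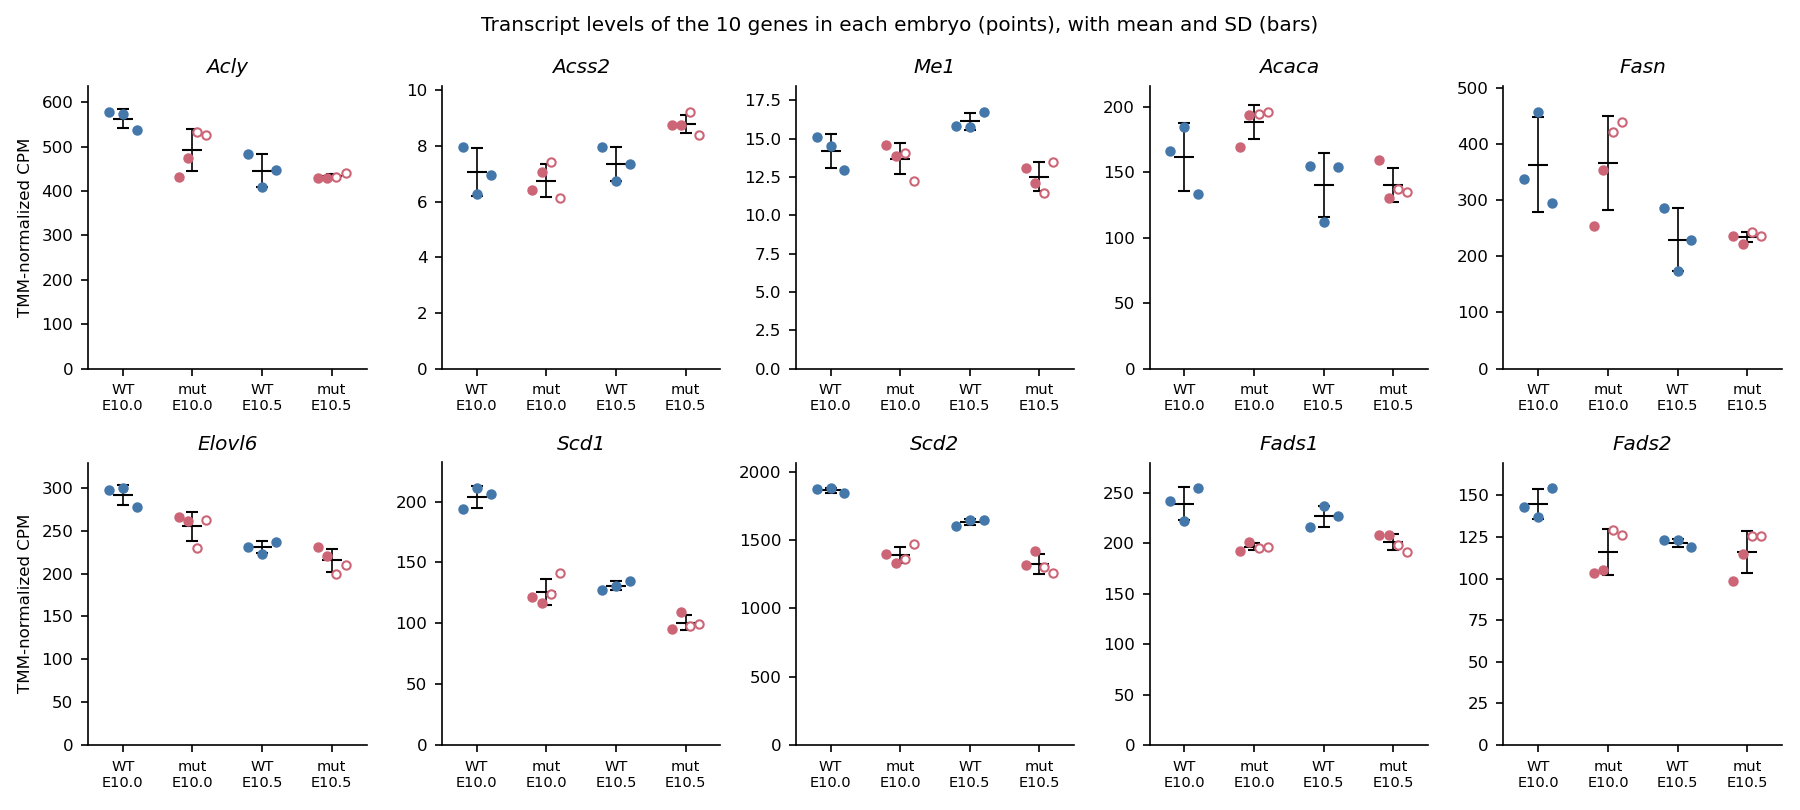
TMM-normalized CPM (vertical axis, from 0) of the 10 members in each embryo, with wild type (WT) in blue, Smad4Δ/Δc mutants (mut) in red and the mutants numbered 4 and 5 as open points. Bars are means and SD (n=3 wild type, n=4 mutants). The mutant points of Scd1, Scd2, Fads1, Fads2, Acly and Elovl6 at E10.0 lie below all wild-type points, while those of Fasn overlap them at both stages.

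Acly (chromosome 11, 100337667-100389314, mm9, minus strand) stood at 579, 572 and 538 CPM in wild type against 432, 474, 534 and 526 CPM in mutants at E10.0. All mutants were lower, those numbered 4 and 5 by the least. Its log2 fold change of −0.20 ± 0.08 did not pass (adjusted p = 0.207), but without mutants 4 and 5 it was −0.30 and Acly was a DEG (adjusted p = 0.0146). At E10.5 its groups overlapped, with 483, 408 and 447 CPM in wild type against 429 to 441 CPM in mutants.

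Me1 (chromosome 9, 86474970-86589947, mm9, minus strand) was a DEG at E10.5 and not at E10.0, and the difference between the stages did not pass (adjusted p = 0.780 by edgeR's quasi-likelihood test). At E10.0 it was 15.1, 14.5 and 12.9 CPM in wild type against 12.2 to 14.6 CPM in mutants, which overlapped. At E10.5 it was 15.8, 15.8 and 16.8 CPM in wild type against 13.1, 12.1, 11.5 and 13.5 CPM in mutants. Here the mutants were all lower, and the log2 fold change was −0.36 ± 0.06 (adjusted p = 0.0445). This call was lost when mutant 2 or 4 or any wild-type embryo of that stage was left out, with adjusted p of 0.143 to 0.266 and log2 fold changes of −0.32 to −0.37. It was also lost without mutants 4 and 5 together (−0.35, adjusted p = 0.112).

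Acss2 (chromosome 2, 155343684-155411460, mm9, plus strand) was the weakest signal, with 249 to 492 reads per embryo. It was 6.26 to 7.97 CPM in wild type against 6.12 to 7.43 CPM in mutants at E10.0. At E10.5 it was 7.95, 6.74 and 7.33 CPM in wild type against 8.75, 8.76, 9.23 and 8.40 CPM in mutants. Every mutant was higher at the later stage, but the log2 fold change of 0.26 ± 0.07 did not pass (adjusted p = 0.493). Exons of Ggt7 and 4930471I20Rik cover 10.6% of the exon bases of Acss2, and the libraries do not tell strands apart, so that its counts are less certain than those of the other members.

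Acaca (chromosome 11, 83943174-84215153, mm9, plus strand) stood at 166, 185 and 133 CPM in wild type against 169, 194, 194 and 196 CPM in mutants at E10.0, and at 155, 112 and 154 CPM and 159, 130, 137 and 135 CPM at E10.5. The groups overlapped at both stages, with log2 fold changes of 0.22 ± 0.15 and 0.00 ± 0.17. Fasn (chromosome 11, 120667254-120685492, mm9, minus strand) stood at 338, 458 and 295 CPM in wild type against 254, 355, 422 and 440 CPM in mutants at E10.0. At E10.5 it was 287, 174 and 229 CPM in wild type against 236, 223, 244 and 236 CPM in mutants. The groups overlapped at both stages, with mutant 1 below all wild-type embryos at E10.0, and the log2 fold changes were 0.01 ± 0.26 and 0.03 ± 0.21. The coefficient of variation of Fasn was 22.9% to 24.5% in 3 of the groups, the widest of the 10 genes there, but 3.79% in mutants at E10.5. For Scd2 it was 1.03% to 5.29% over the 4 groups. A change of the size seen in Scd2 was therefore smaller than 2 standard errors in Fasn. The exact test does not use these standard errors, so that they do not say what change it could detect. Without mutants 4 and 5 the E10.0 value of Fasn was −0.24 (adjusted p = 0.403).

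Elovl6 (chromosome 3, 129235304-129341413, mm9, plus strand) stood at 297, 300 and 278 CPM in wild type against 266, 261, 230 and 262 CPM in mutants at E10.0. All mutants were lower, but the log2 fold change of −0.19 ± 0.06 did not pass (adjusted p = 0.180). At E10.5 the groups overlapped at 231, 223 and 237 CPM against 231, 220, 200 and 210 CPM.

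At E10.5, Scd1, Scd2 and Me1 were DEGs and lower in mutants, 3 of 10 members, where 3.73% of all genes tested were DEGs and 1.54% were lower. Every mutant lay below every wild-type embryo in 4 members (Scd1, Scd2, Fads1 and Me1), which held for 6.4% of all genes. The median log2 fold change of the 10 members was −0.08, against −0.19 at E10.0.

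**Figure D2:**
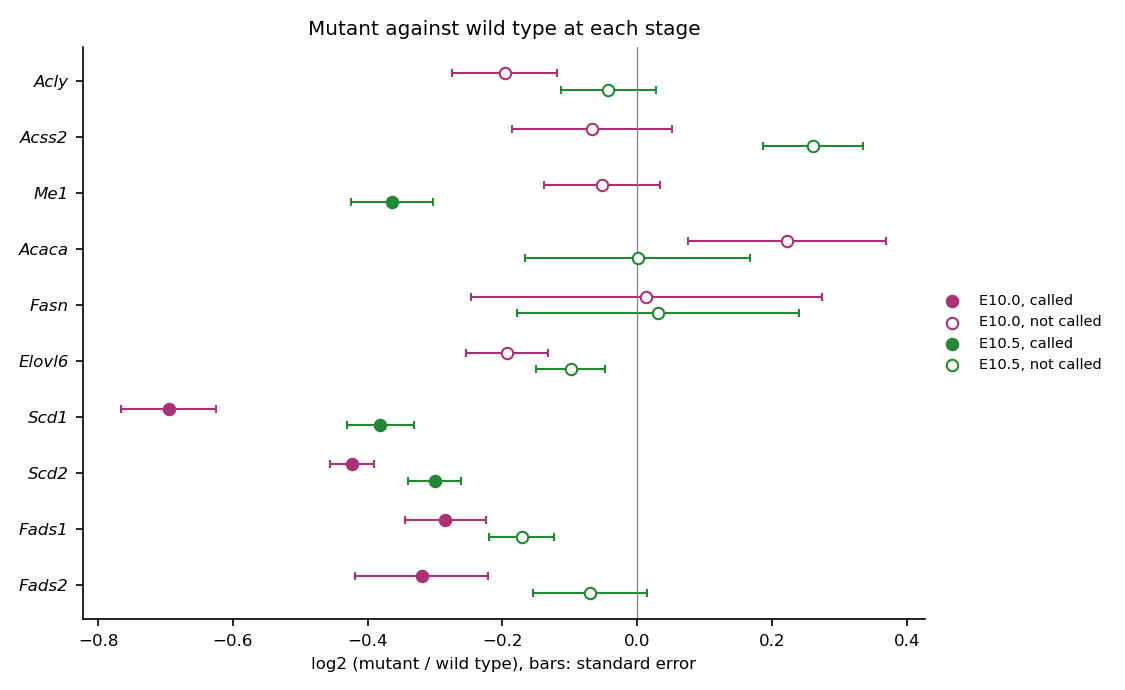
Log2 fold change (horizontal axis) of mutant over wild type for each member at E10.0 (purple) and E10.5 (green), with standard errors from the replicate variances (n=3 and n=4) and filled points for DEGs. Scd1 is the lowest at both stages, at −0.70 and −0.38, and the bars of Fasn and Acaca are the widest.

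The change from E10.0 to E10.5 showed which members decline as the bud grows. In wild type, Fasn, Scd1, Acly and Elovl6 fell, and no member rose by the test. This made 4 of 10 members, where 10.1% of all genes tested were DEGs and 4.74% fell. Fasn had a log2 fold change of −0.66 ± 0.28 (adjusted p = 0.00903), Scd1 one of −0.64 ± 0.04 (adjusted p = 2.09e-09), Acly one of −0.34 ± 0.08 (adjusted p = 0.0112) and Elovl6 one of −0.34 ± 0.04 (adjusted p = 0.00497). Scd1 and Elovl6 kept their calls without any 1 embryo. Fasn lost its call without wild-type embryo 2 of E10.0 (−0.46, adjusted p = 0.218) or of E10.5 (−0.49, 0.132), and Acly without wild-type embryo 2 of E10.5 (−0.27, 0.134).

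In mutants, Fasn, Scd1 and Acaca fell and Acss2 rose from E10.0 to E10.5, where 19.2% of all genes tested were DEGs and 8.4% fell. The log2 fold changes were −0.65 ± 0.18 for Fasn (adjusted p = 0.000805), −0.32 ± 0.07 for Scd1 (adjusted p = 0.000818), −0.42 ± 0.08 for Acaca (adjusted p = 0.00188) and 0.38 ± 0.07 for Acss2 (adjusted p = 0.0159). Elovl6 passed the adjusted p but not the fold change (−0.24 ± 0.07, adjusted p = 0.0132). None of these 4 calls held without the mutants numbered 4 and 5, with values of −0.40 for Fasn (adjusted p = 0.193), −0.21 for Scd1 (0.115), −0.32 for Acaca (0.183) and 0.39 for Acss2 (0.130). That fit kept 2 mutants per stage. In mutants, the levels of Scd2, Fads1 and Fads2 overlapped between the stages, with log2 fold changes of −0.07, 0.04 and −0.00.

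**Figure D3:**
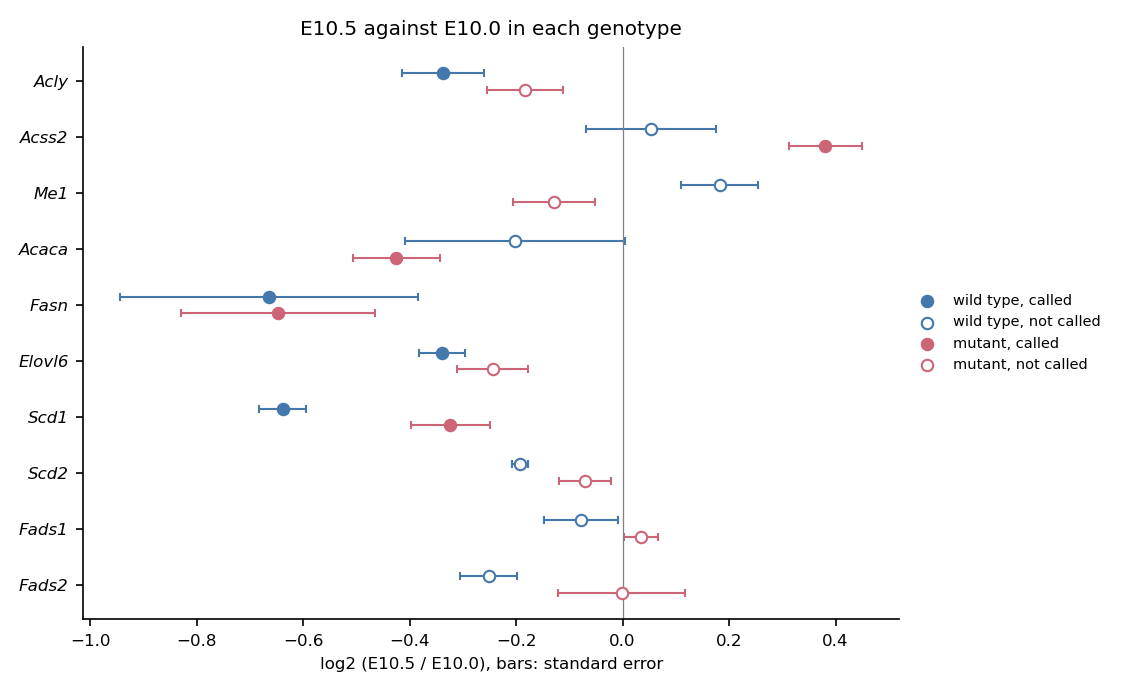
Log2 fold change (horizontal axis) from E10.0 to E10.5 for each member in wild type (blue) and in mutants (red), with standard errors (n=3 and n=4 embryos per stage) and filled points for DEGs. Fasn fell by 0.66 and 0.65 on the log2 scale, and Scd1 by 0.64 in wild type and 0.32 in mutants.

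Whether the effect of the genotype differed between the stages was tested with edgeR's quasi-likelihood test. No member passed at an adjusted p of 0.1, where 0.186% of all genes did, and DESeq2 also called 0 members. An unadjusted p under 0.05 was reached by 3 of 10 members and by 714 of all 12393 genes, and these members did not pass. Scd1 had a log2 difference of 0.31 between the stages (adjusted p = 0.536), Acss2 one of 0.33 (adjusted p = 0.850) and Me1 one of −0.31 (adjusted p = 0.780). The comparison of genotypes at each stage and that of stages in each genotype share embryos, so that they are not independent of each other.

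The cholesterol genes are given beside these values. All 17 sterol synthesis genes tested were lower in mutants at E10.0, with a median log2 fold change of −0.59 and a range from −0.85 to −0.41. Sqle, squalene epoxidase, fell by 28.6% (adjusted p = 1.98e-06). Scd1 lies inside the range of the 17 sterol genes, Scd2 lies inside it near its upper end, and the 8 other members lie above it. At E10.5, 2 of 17 sterol genes were lower, with a median of −0.16, and the log2 fold change of all 17 was higher than at E10.0, as it was for 8 of the 10 members. These 2, Acat2 and Tm7sf2, were no DEGs by the quasi-likelihood test, and each kept its call in 6 of the 14 fits that left out 1 embryo, which gave 0 to 3 genes. The count was 0 without any 1 wild-type embryo of E10.0 and without wild-type embryo 1 or 2 of E10.5. Acat2 also lost its call without mutants 4 and 5 (−0.15, adjusted p = 0.356). Scd1 and Scd2 were DEGs at that stage with larger changes than the sterol median. In the quasi-likelihood test of the difference between stages, 3 of 17 sterol genes passed (adjusted p of 0.0683 to 0.0885). By the same test 0 of 10 members and 0.186% of all genes passed. None of the 3 sterol genes passed at an adjusted p of 0.05. Over all genes, the 23 that passed became 6 without mutants 4 and 5, and the 3 sterol calls were not examined without those mutants. An unadjusted p under 0.05 was reached by 15 of 17 sterol genes, 3 of 10 members and 714 of 12393 genes. In wild type, 14 of 17 sterol genes fell from E10.0 to E10.5 (median −0.49), and the median in mutants was −0.08. For the 10 members these medians were −0.23 and −0.16. Ebp and Nsdhl lie on chromosome X and were not tested, and Hmgcs1 had 0 to 6 reads. The reason for this low count was not tested, and it is not read here as low expression of Hmgcs1. These genes were selected with results of the same embryos known, so that they are not independent evidence of the direction.

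Srebf2 stood at 241, 227 and 248 CPM in wild type against 148, 170, 183 and 189 CPM in mutants at E10.0. The mutants were all lower, and the log2 fold change was −0.47 ± 0.09 (adjusted p = 0.000406). Srebf1 stood at 54.4, 61.8 and 61.3 CPM in wild type against 33.3, 39.1, 52.9 and 47.1 CPM in mutants. It was lower in all mutants, by −0.46 ± 0.16 on the log2 scale (adjusted p = 0.0286; −0.69 without mutants 4 and 5), and the call was lost without wild-type embryo 2 (−0.43, adjusted p = 0.116) or 3 (−0.42, 0.230), or mutant 1 (−0.35, 0.117). Insig1 stood at 137, 151 and 141 CPM in wild type against 92.5, 90.2, 74.2 and 73.4 CPM in mutants. Its log2 fold change was −0.79 ± 0.10 (adjusted p = 4.81e-10). With Nr1h3, given next, 4 of the 12 regulators tested were DEGs at E10.0, all lower, where 3.28% of all genes tested were lower. The median log2 fold change of the 12 was −0.12, and the highest was 0.03. Whether the regulators had a part in the lower desaturases was not tested. Nr1h3, which encodes the oxysterol receptor LXRα, was low, at 1.02 to 1.43 CPM in wild type against 0.582 to 0.956 CPM in mutants (log2 fold change −0.86 ± 0.22, adjusted p = 0.0424), and lost its call without mutant 1 or 5 or wild-type embryo 1 or 3 (adjusted p of 0.113 to 0.305). Mlxipl, which encodes the glucose-responsive factor ChREBP, was at 1.60 ± 0.56 CPM (SD, n=3) and 1.53 ± 0.20 CPM (n=4). At E10.5 none of the 12 regulators tested passed by the exact test, the quasi-likelihood test or DESeq2, 0 had an unadjusted p under 0.05 by the exact test, and 1 passed without mutants 4 and 5. The values were −0.27 ± 0.14 for Srebf1, −0.13 ± 0.12 for Srebf2 and −0.21 ± 0.12 for Insig1.

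**Figure D4:**
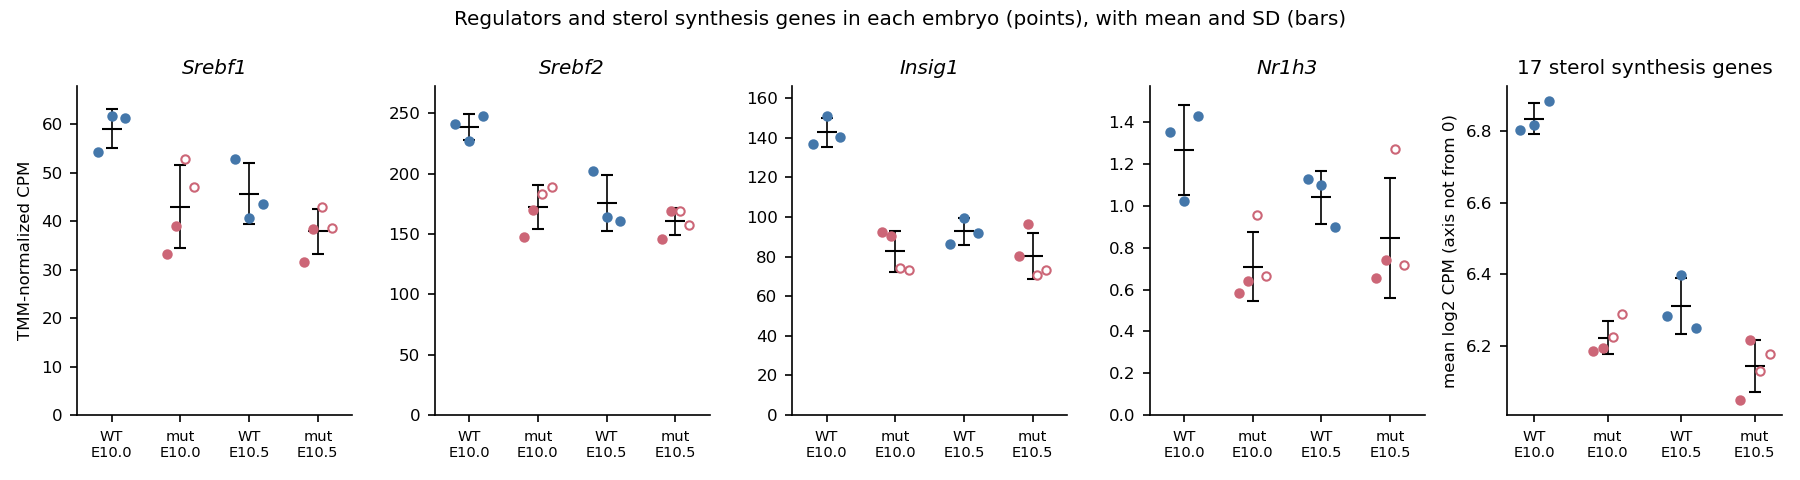
TMM-normalized CPM (vertical axes, from 0) of Srebf1, Srebf2, Insig1 and Nr1h3 in each embryo, and the mean log2 CPM of the 17 sterol synthesis genes (last panel, axis not from 0), with wild type in blue, mutants in red, mutants numbered 4 and 5 open, and means with SD. At E10.0 all mutants lie below all wild-type embryos in each panel.

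The neighbouring lipid pathways were read against all genes tested, of which 3.28% were lower at E10.0 and 1.54% at E10.5. Of 7 other genes of carbon and NADPH supply, 1 was lower at E10.0, Idh1, a cytosolic source of NADPH (−0.44 ± 0.07, adjusted p = 0.000387), and 0 passed at E10.5 by any of the 3 tests, with 2 at an unadjusted p under 0.05. Of 18 other genes of fatty acid synthesis, elongation and desaturation, 2 were lower at E10.0, the elongase gene Elovl1 (−0.30, adjusted p = 0.0531) and Mcat of the mitochondrial pathway (−0.29, adjusted p = 0.0900). Of the 14 fits that left out 1 embryo, 8 kept the call of Elovl1 and 4 that of Mcat, which was also lost by the quasi-likelihood test and without mutants 4 and 5 (−0.25, adjusted p = 0.140). The largest adjusted p came without wild-type embryo 3 of E10.0 (0.303 and 0.450). At E10.5 the elongase gene Elovl2 was lower (−0.32, adjusted p = 0.0149), without a call once mutants 4 and 5 were left out (−0.23, 0.161). Elovl7 was higher (0.85, adjusted p = 0.0264) at 1.36 ± 0.36 CPM in wild type against 2.43 ± 0.76 CPM in mutants, which overlapped, and lost its call without wild-type embryo 1 (adjusted p = 0.151) or 2 (0.332) or mutant 2 (0.170).

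Among 16 genes of fatty acid activation and lipid assembly, 3 were lower at E10.0. These were Pcyt2, of phosphatidylethanolamine synthesis (−0.57, adjusted p = 0.00156), the phosphatidate phosphatase gene Lpin1 (−0.62, adjusted p = 0.00489) and the acyltransferase gene Mogat2 (−0.40, adjusted p = 0.00726). Without wild-type embryo 3 the calls of Pcyt2 (−0.44, adjusted p = 0.106) and Mogat2 (−0.34, 0.161) were lost, and 1 of the 16 genes was lower. Mogat2 was also lower at E10.5 (−0.46, adjusted p = 0.00119), where Agpat3 was higher (0.29, adjusted p = 0.0955) and kept its call in 5 of these 14 fits, but not without mutants 4 and 5 (0.19, adjusted p = 0.362). Among 16 genes listed under fatty acid oxidation, Cpt1c was the only DEG at E10.0 and was lower (−0.78, adjusted p = 6.86e-05). Its part in oxidation in these cells was not tested. Cpt1a, the carnitine palmitoyltransferase that admits fatty acids to mitochondria, was higher at E10.5 (0.71, adjusted p = 0.00184). Cpt1a stood at 14.3 ± 1.70 CPM in wild type against 23.4 ± 3.01 CPM in mutants at E10.5, and its groups did not overlap. Of 9 genes of fatty acid uptake and binding, 1 was lower at E10.0, the transporter gene Slc27a1 (−0.46, adjusted p = 0.0942), which kept its call in 3 of these 14 fits and did not pass by the quasi-likelihood test (adjusted p = 0.112). The list medians at E10.0 lay between −0.14 and −0.01, against −0.02 for all genes tested.

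**Figure D5:**
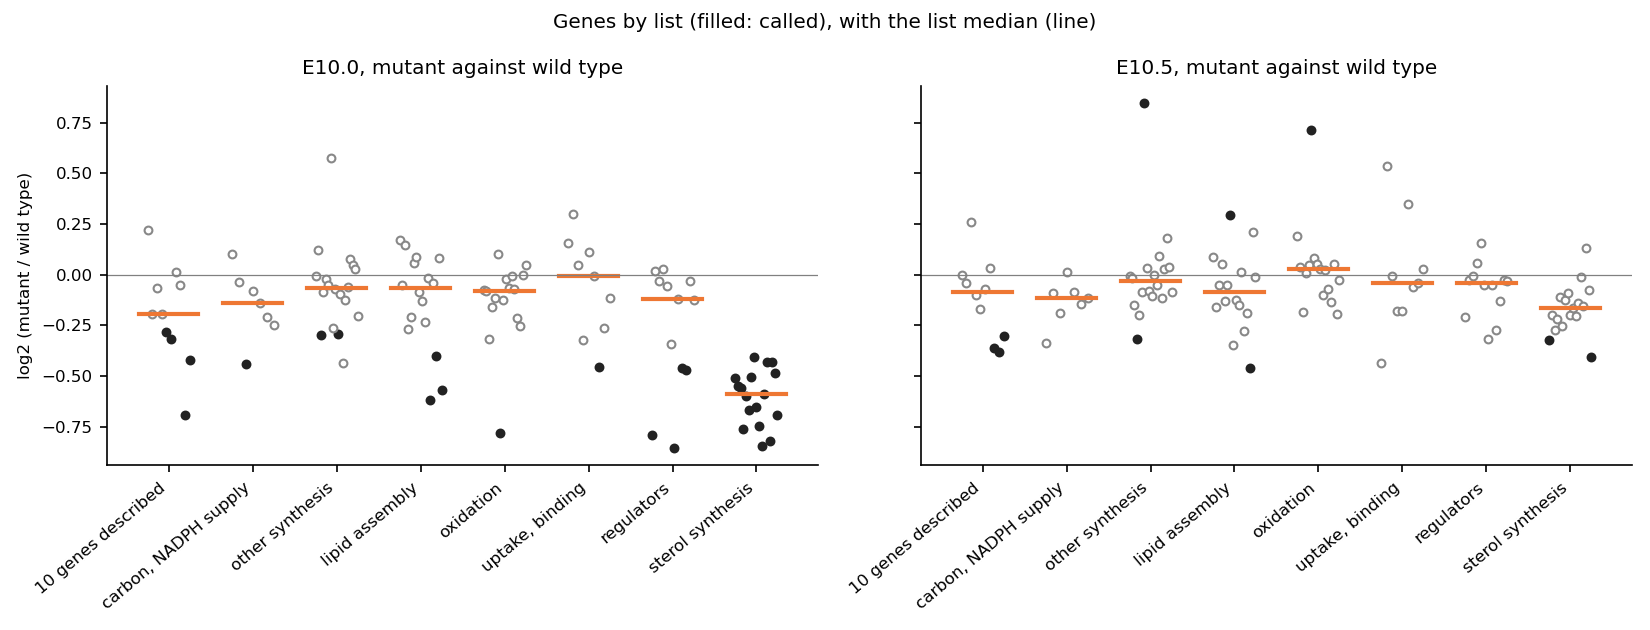
Log2 fold change of mutant over wild type (vertical axis) at E10.0 (left) and E10.5 (right) for each gene tested, by list (horizontal axis), with DEGs filled and the median of each list as a line. The 17 sterol synthesis genes lie between −0.85 and −0.41 at E10.0, and the median of the 10 members there is −0.19.

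Promoters from 250 bases before to 50 bases after the start site (RefSeq, GRCm38.p6) were used for 7 members, of which Me1 has 2, and were searched on both strands for 5 motifs. Those of Scd1, Scd2 and Fads1, which make up 3 of the 4 DEGs at E10.0, were not searched. No match of the sterol response element TCACNCCAC or of the E-box CACGTG was found in these 8 windows, which 1.24% and 7.15% of all 32851 promoters hold. The NF-Y box CCAAT was found in 4 (37.4% of all promoters) and the Sp1 box GGGCGG in 4 (35.7%). The SMAD GC box GGCGCC was found in 3 (11.9%). The windows of 18 promoters of sterol synthesis genes held the same motifs in 1, 3, 14, 15 and 3 cases. The sterol response element was thus rare in those genes too. Its absence from 8 windows therefore cannot show that the members lack sites for SREBP. Fasn and Fads2 are printed because they carry both a GC box and a further motif and because Fads2 was a DEG at E10.0 and Fasn was not. Capitals mark motif letters, and positions count from the start site as 0. In Fasn the GC box begins at −202 and NF-Y boxes at −90, −62 and −59, the last 2 sharing letters. In Fads2 an Sp1 box begins at −186 and GC boxes at −27 and 27. The windows are Fasn on the minus strand at chr11:120824498-120824797 and Fads2 on the minus strand at chr19:10101454-10101753, both GRCm38.p6.
Fasn: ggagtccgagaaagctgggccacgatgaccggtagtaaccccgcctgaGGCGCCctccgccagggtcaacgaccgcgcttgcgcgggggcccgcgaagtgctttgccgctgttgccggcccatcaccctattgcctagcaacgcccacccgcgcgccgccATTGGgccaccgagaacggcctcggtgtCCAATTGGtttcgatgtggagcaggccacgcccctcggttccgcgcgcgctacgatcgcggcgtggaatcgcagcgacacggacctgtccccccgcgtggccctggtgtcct
Fads2: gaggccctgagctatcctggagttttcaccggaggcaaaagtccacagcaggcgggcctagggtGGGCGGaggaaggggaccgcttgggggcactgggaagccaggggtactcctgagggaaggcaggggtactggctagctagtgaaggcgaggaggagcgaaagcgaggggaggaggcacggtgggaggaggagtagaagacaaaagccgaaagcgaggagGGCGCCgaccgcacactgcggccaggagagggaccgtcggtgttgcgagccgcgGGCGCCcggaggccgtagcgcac
A match of letters is a description of the sequence, and no binding was measured here.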

How the data were processed

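Counts were deposited by the authors as raw reads per gene symbol for 14 limb bud samples. The authors had aligned single reads of 50 bases to mm9 and refGene with TopHat2 2.0.13, kept unique reads and counted them with HTSeq without regard to strand. Here, genes of chromosomes X, Y and M were set aside, and the 12393 genes that reached 1 CPM in 3 or more samples entered edgeR 4.0.16 (R 4.3.3): TMM normalization, common and tag-wise dispersions over all 14 samples (prior of 10 degrees of freedom) and the exact test that the study's methods name, in place of the quasi-likelihood test, which was an alternative and the test of the interaction. P-values were adjusted by Benjamini-Hochberg over all genes tested. Standard errors came from replicate variances of log2 CPM (0.5 reads added). DESeq2 1.42.0 was another alternative. The tests were tried on simulated counts. Figures were drawn with matplotlib 3.10.9. Named were the 10 members and at most 4 DEGs per list and genotype comparison in order of p. Also named were 9 genes of SREBP control and sterols where tested, single cell type markers, Fads3 and Degs1. Some of these genes are not reported here. Members and lists were chosen with earlier results of these data known. Each sample is 1 embryo, and batches were not given in the sources used here.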

Additional observations from a re-analysis of the deposited data

Results flagged for a closer look

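In 20 sets of 4 mutant embryos (10 members at 2 stages), 2 had an embryo that lay far from the other 3, where chance flags about 1 in 20. Acaca at E10.0 was lowest in mutant 1, at 169 CPM, with the other 3 mutants between 194 and 196 CPM. Elovl6 at E10.0 was lowest in mutant 4, at 230 CPM, with the other 3 between 261 and 266 CPM. Neither gene was a DEG between genotypes at that stage with any 1 embryo left out. Mutant 4 is among the embryos with a high share of Rn45s (1.80% of reads) and mutant 1 has the lowest share (0.151%), and the part of this in the values was not tested.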

How the results depend on the processing

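The counts of members called were compared under the alternatives of another test, normalization, filter, threshold, set of samples or model. Leaving out 1 embryo at a time gave 2 to 4 members at E10.0 and 2 to 3 at E10.5, 2 to 4 between stages in wild type and 4 to 5 in mutants, and 0 for the interaction. The 2 at E10.0 came without wild-type embryo 3 of that stage, those at E10.5 in the 5 fits in which Me1 lost its call, and the 2 between stages in wild type without wild-type embryo 2 of E10.5. Without mutants 4 and 5 there were 5 at E10.0, 1 at E10.5 (Scd1), 4 between stages in wild type and 0 between stages in mutants. With a replicate block there were 4 members at E10.0 (Acly in place of Fads1), 2 at E10.5 (not Me1) and 4 in each stage comparison. Numbers 4 and 5 occur only in mutants, so that the block takes much of their weight out of the genotype comparisons. For these comparisons the block is therefore no separate check from leaving out mutants 4 and 5. The block gave embryos with the same number a shared term, across genotypes and also across both stages. Whether such embryos shared a litter or batch is not known, although the paper used littermates as controls. Deviations of embryos with the same number correlated at −0.20 to 0.14, and those of embryos with different numbers at −0.24 to 0.30. With 4 pairs of the same number, these values cannot settle it. The quasi-likelihood test, DESeq2, RLE and upper-quartile factors, no low-count filter, X, Y and M kept, an adjusted p of 0.05 and a fit of only the groups compared gave the counts of the main test wherever they could be applied, and no fold change threshold added Elovl6 between stages in mutants. No called member changed its sign under any alternative. Over all genes, the 819 DEGs at E10.0 became 2018 without mutants 4 and 5, 1961 with the replicate block, 506 at an adjusted p of 0.05 and 254 (without wild-type embryo 3) to 1062 with 1 embryo left out. The 462 at E10.5 became 280 with the block and 286 (without wild-type embryo 2) to 516 with 1 embryo left out, the 1256 between stages in wild type became 1932 with only those groups in the fit and 484 (without wild-type embryo 2 of E10.0) to 1515 with 1 embryo left out, and the 23 of the interaction became 87 by DESeq2, 39 without the low-count filter, 9 at an adjusted p of 0.05, 6 without mutants 4 and 5 and 7 to 34 with 1 embryo left out. The 2 sterol synthesis genes at E10.5 became 1 by DESeq2, with RLE or upper-quartile factors or with the block, and 0 by the quasi-likelihood test, without the low-count filter or at an adjusted p of 0.05. The cause of these shifts was not tested. Acss2 (249 to 492 reads) and Me1 (405 to 851 reads) had the fewest reads behind their values.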

Other observations

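Fasn and Acaca, the genes of the consecutive enzymes of palmitate synthesis, had their lowest value in the same embryo in 4 of 4 groups and their highest in the same embryo in 3 of 4. In wild type at E10.5, for example, embryo 2 had 174 CPM of Fasn and 112 CPM of Acaca, while the other 2 embryos had 229 and 287 CPM of Fasn and 154 and 155 CPM of Acaca. The next pairs of members shared the lowest embryo in 3 groups. Scd1 and Scd2 had their highest value in the same embryo in 4 of 4 groups. These pairs were chosen after the values were seen, and no test was made.

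Cpt1a rose from E10.0 to E10.5 in both genotypes, with a log2 fold change of 0.83 ± 0.27 in wild type (adjusted p = 0.000231) and 1.45 ± 0.13 in mutants (adjusted p = 1.35e-17), by edgeR's exact test. Ppargc1a, a coactivator of oxidative metabolism, rose by 1.06 ± 0.29 (adjusted p = 0.000101) and 0.86 ± 0.19 (adjusted p = 0.000150). Acadl and Acadvl, acyl-CoA dehydrogenases of fatty acid oxidation, rose in mutants (0.49 and 0.29, adjusted p = 1.30e-05 and 0.0117). Of the 16 oxidation genes tested, 2 rose and 0 fell in wild type, and 5 rose and 1 fell in mutants. Of all 12393 genes tested, 668 rose and 588 fell in wild type, and 1333 rose and 1041 fell in mutants. Mogat2 fell between the stages in both genotypes, by 0.65 and 0.71 on the log2 scale (adjusted p = 1.04e-06 and 5.92e-11). These genes were named after their values were seen. Their calls and counts between stages are given from all embryos only, and were not examined without the mutants numbered 4 and 5. None of the 4 member calls between stages in mutants held without those embryos.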
